A study of Mus musculus with 2 samples.

Results

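Among the islet macrophages of wild-type mice, 102 of 1706 cells stood at the top of a summed score of 7 activation genes: Pdpn, Il10, Clec4e, Mcoln2, Cxcl3, Ptgs2 and Tnfsf9. The 1706 were the barcodes of 2237 that had at least 200 genes, at most 10% mitochondrial transcripts, at least 5000 RNA UMIs and at least 2000 CPM of C1qa, C1qb and C1qc together. A UMI is a molecular barcode that marks 1 captured transcript, and CPM is the count of a gene per 1000000 UMIs of the cell or group. The 6% of gated cells with the largest summed CPM of the 7 genes are called marker-high macrophages here, and the remaining 1604 gated cells are called other macrophages.

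All cells came from 1 pool of CD45+ cells, sorted as live and Epcam-negative from pancreatic islets; the donors were 6 to 8 males of the C57BL/6J strain with the wild-type genotype, and no age is stated for them. Each cell was read for its polyadenylated RNA and for antibody tags on CD9, a tetraspanin of the cell surface, and CD206, the mannose receptor. There was no treated or mutant group, and the pooled mice cannot be told apart, so no difference below has a replicate check and no p-value was computed. All intervals are 95% intervals for counting error only.

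Macrophages of the islet lie beside the endocrine cells and blood vessels and sample their surroundings. On activation through pattern-recognition receptors, macrophages switch on NF-kB target genes, including neutrophil-attracting CXC chemokines, interleukin 1, TNF and the prostaglandin enzyme cyclooxygenase 2, together with feedback genes such as Il10 that limit the response. Of the 7 genes, Cxcl3 encodes a CXC chemokine, Il10 an anti-inflammatory cytokine and Tnfsf9 the ligand of the costimulatory receptor 4-1BB. Clec4e encodes Mincle, a C-type lectin that recognizes glycolipids and dying cells. Ptgs2 encodes cyclooxygenase 2, Mcoln2 an endolysosomal cation channel, and Pdpn podoplanin, a membrane glycoprotein that binds CLEC-2 on platelets.

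Cxcl3 and its neighbours Cxcl1 and Cxcl2 lie within 1 stretch of chromosome 5, and all 3 had higher levels in the marker-high cells. The 250 bases before each start are shown because all 3 hold an identical 9-base NF-kB match, GGGAATTTC. Ptgs2, on chromosome 1, is shown as the marker whose window held another motif. All come from RefSeq (GRCm38.p6), run 5′ to 3′ on the gene's strand, which is the plus strand for all 4, and have motif matches in capitals. The positions are chr5:90785851-90786100 for Cxcl3, chr5:90890995-90891244 for Cxcl1, chr5:90903649-90903898 for Cxcl2 and chr1:150099781-150100030 for Ptgs2.
Cxcl3: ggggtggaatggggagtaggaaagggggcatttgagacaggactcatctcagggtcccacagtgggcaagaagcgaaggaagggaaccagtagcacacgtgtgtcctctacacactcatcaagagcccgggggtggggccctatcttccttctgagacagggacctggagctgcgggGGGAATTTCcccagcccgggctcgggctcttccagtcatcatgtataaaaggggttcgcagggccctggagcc
Cxcl1: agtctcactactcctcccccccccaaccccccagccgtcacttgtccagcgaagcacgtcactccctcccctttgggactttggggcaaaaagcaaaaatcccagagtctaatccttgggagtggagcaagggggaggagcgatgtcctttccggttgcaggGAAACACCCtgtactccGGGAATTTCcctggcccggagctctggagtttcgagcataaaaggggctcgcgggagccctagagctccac
Cxcl2: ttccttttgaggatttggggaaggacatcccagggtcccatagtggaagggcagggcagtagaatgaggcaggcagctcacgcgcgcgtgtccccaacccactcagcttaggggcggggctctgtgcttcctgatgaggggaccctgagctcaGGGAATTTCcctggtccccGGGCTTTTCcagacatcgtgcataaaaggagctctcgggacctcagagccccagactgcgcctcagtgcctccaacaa
Ptgs2: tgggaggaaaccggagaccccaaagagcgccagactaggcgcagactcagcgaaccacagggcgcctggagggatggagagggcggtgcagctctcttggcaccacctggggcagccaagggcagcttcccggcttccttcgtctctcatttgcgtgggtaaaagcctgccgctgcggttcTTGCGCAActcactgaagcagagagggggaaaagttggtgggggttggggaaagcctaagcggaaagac

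A set of 4 motifs was searched on both strands: NF-kB as GGGNNTTNC, C/EBP as TTGCGCAA, the cyclic AMP response element as TGACGTCA and AP-1 as TGANTCA. The NF-kB letters were in 13% of the 32851 windows of this length in the table, and the exact letters GGGAATTTC in 77 of them (0.234%). AP-1 letters were in 6.75% of windows and in none of these 4 genes' windows. That run began 73 bases before the start of Cxcl3, 71 before Cxcl1 and 97 before Cxcl2. Cxcl1 and Cxcl2 each held another NF-kB match, at 88 and 78 bases before the start. Pdpn held 1 NF-kB match at 220 bases. The C/EBP letters, in 0.164% of windows, were in Ptgs2 at 69 bases. None of the 4 motifs was in the windows of Clec4e or Mcoln2. No window was found for Il10 or Tnfsf9, so these genes were not searched. Matches of letters are a description and show no binding.

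The label given to these cells was only partly borne out by the markers. Their score came mostly from Clec4e, which gave 36.1% of the members' summed CPM, and Cxcl3, which gave 33.6%. Il10 followed with 13.5% and Ptgs2 with 9.60%. Tnfsf9 gave 4.15%, Mcoln2 1.98% and Pdpn, the first gene of the label, 1.13%. In 76 of the 102 members the leading marker was Clec4e or Cxcl3, and Pdpn led in 1 member. All 12 macrophage identity genes were measured, and they summed to 9787 CPM in marker-high and 10672 CPM in other macrophages. Most of that sum came from the C1q genes used for the gate. In marker-high cells C1qa stood at 2199, C1qb at 2480 and C1qc at 1537 CPM. Outside the gate, Lyz2 stood at 1686 CPM in marker-high and 1362 CPM in other macrophages. Cd68 stood at 542 and 543 CPM and Adgre1 at 324 and 360 CPM, while Mertk, Fcgr1 and Cx3cr1 were called lower.

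The score was continuous. The lowest marker-high cell had 2081 summed CPM and the highest other macrophage 2067; the tenth cells on either side of that line had 2217 and 1960. The median was 2966 CPM in marker-high and 114 CPM in other macrophages, and the highest cell reached 7598 CPM. Another 185 other macrophages (11.5%) had at least 1000 summed CPM, while 477 (29.7%) had no UMI of any of the 7 genes. The marker-high cells held 37.8% of the gated cells' UMIs of these genes. These values follow from the choice of cells.

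**Figure D1:**
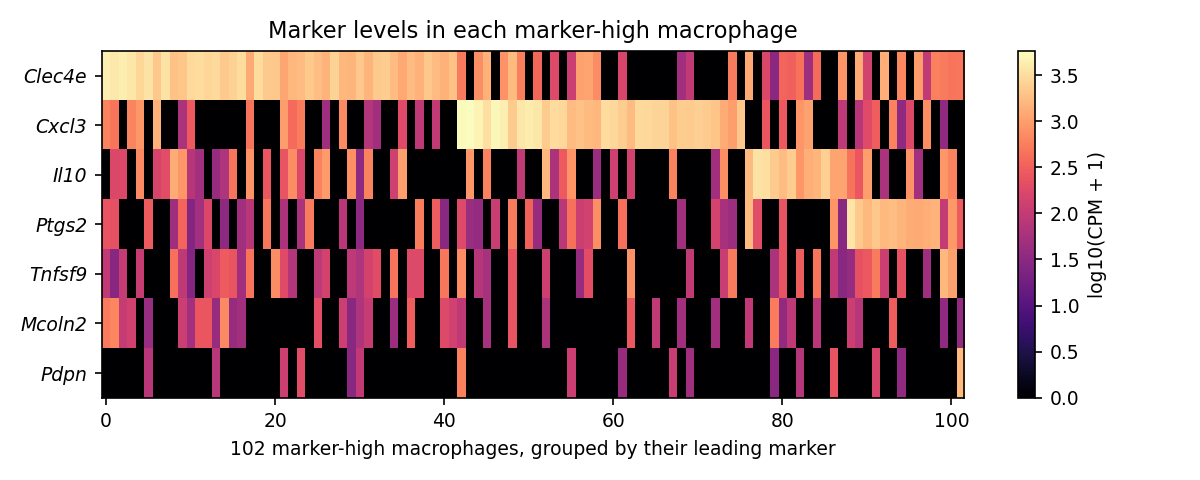
Level of the 7 genes in each of the 102 marker-high macrophages, as log10(CPM + 1), 1 column per cell, cells grouped by their leading marker (Clec4e, then Cxcl3, Il10, Ptgs2, Tnfsf9 and Pdpn) and sorted by summed CPM within it. Clec4e led in 42 cells and Cxcl3 in 34, and most cells are bright in 1 gene and dark in several others.

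Single members differed in which genes they carried. The median member had UMIs of 4 of the 7 genes, against 1 in other macrophages, and no cell had all 7. In 92 members 1 marker gave over 50% of the score, and in 27 members it gave over 90%. Only 8 members had UMIs of Pdpn, Il10 and Clec4e together, and 11 had none of these 3. Conversely, 136 other macrophages carried at least 4 of the genes at lower levels, as did 60 members.

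Clec4e ranged over members from 0 to 4414 CPM with a median of 817 CPM, and 77 of 102 members had a UMI. Cxcl3 ranged from 0 to 5797 CPM with a median of 266 CPM, and 65 members had a UMI. These were the genes with the highest levels among the 7. Il10 reached 3588 CPM with a median of 55.2 CPM, and Ptgs2 reached 3730 CPM with a median of 34.8 CPM. Tnfsf9 reached 1589 CPM with a median of 26.8 CPM. For all 5 genes the lowest members were at 0, so their ranges overlapped those of the other macrophages. Mcoln2 was found in 40 members and Pdpn in 17, and the median of both was 0.

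Summed over the cells of each class, Cxcl3 stood at 1057 CPM in marker-high and 66.5 CPM in other macrophages, a ratio of 15.9. Clec4e stood at 1223 and 129 CPM, a ratio of 9.48, and the ratios of Ptgs2 (6.34), Il10 (6.11), Mcoln2 (5.36) and Tnfsf9 (4.45) were lower. Pdpn stood at 40.2 and 11.8 CPM, a ratio of 3.41. A single member held 47 of the 97 Pdpn UMIs of the class, and without it the ratio was 1.78. Without the 10% of gated cells richest in endocrine and acinar transcripts, the Pdpn ratio was 1.14. These ratios are set by the choice of cells.

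Most of the markers were rare in lymphocytes of the same library. After thinning every cell to 5000 UMIs, Clec4e had a UMI in 70.6% of marker-high cells, 22.4% of other macrophages and 2.02% of 99 T and NK cells of the same library. For Cxcl3 the shares were 52.0%, 12.4% and 1.01%. Il10, Ptgs2 and Tnfsf9 were likewise at 3.03% or less in T and NK cells. Before thinning, the Clec4e shares were 75.5%, 36.8% and 5.05%, with median depths of 22572.5, 20822.5 and 9677 UMIs. Mcoln2 was the exception: its thinned share in other macrophages, 4.86%, was no higher than the 5.05% in T and NK cells, and the share in marker-high cells was 17.6% (exact Clopper-Pearson interval 10.8 to 26.4%, against 1.66 to 11.4% in T and NK cells). Pdpn had UMIs in 8.82% of thinned marker-high cells, 3.24% of other macrophages and 0 of 99 T and NK cells, for which the upper limit of the exact interval was 3.66%.

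Each gene was then measured in cells chosen without it. The top 6% were taken by the other 6 genes, and the left-out gene was compared between those 102 cells and the rest. All 7 left-out genes were higher in the chosen cells, by 1.59 to 4.77 times. The 7 genes were chosen with earlier results of these data known. The left-out ratios therefore cannot show independently that the genes rise in the same cells. Mcoln2 was 4.77 times higher (interval 3.96 to 5.71) and Tnfsf9 3.08 times (2.68 to 3.53), while Clec4e was 2.40 times higher (2.24 to 2.56) and Cxcl3 2.04 times (1.87 to 2.22). Il10 stood at 2.14 (1.93 to 2.36), Ptgs2 at 2.15 (1.90 to 2.43) and Pdpn at 1.59 (1.16 to 2.13). The markers that carry most of the score thus lost most of their ratio, from 15.9 to 2.04 for Cxcl3 and from 9.48 to 2.40 for Clec4e. Without Clec4e the choice kept 66 of the 102 members, and without Cxcl3 it kept 70. Without Pdpn it kept 101.

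**Figure D2:**
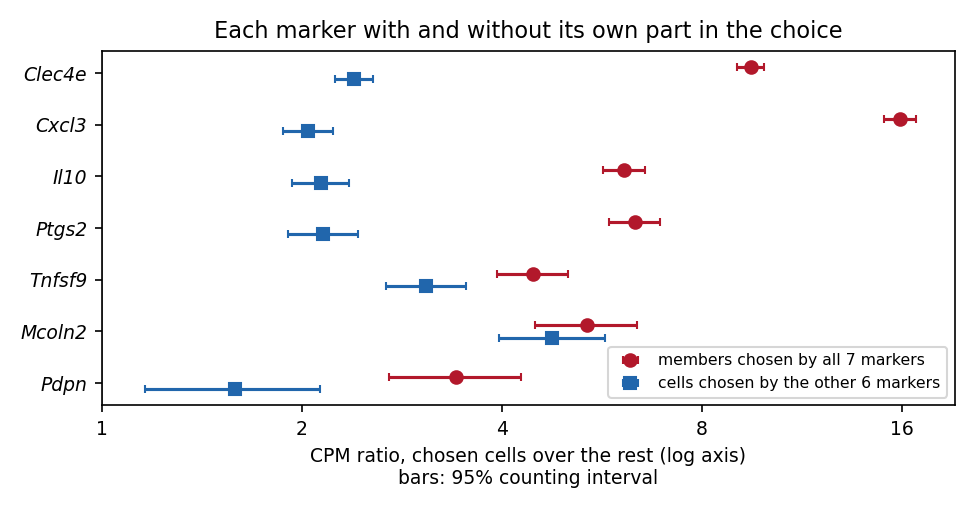
Ratio of CPM on a log axis for each of the 7 genes, in the members chosen by all 7 genes over the other macrophages (red circles) and in the top 6% chosen by the other 6 genes over the rest (blue squares); bars are 95% counting intervals. Every blue square is right of 1, and the gap between circle and square is widest for Cxcl3 (15.9 and 2.04) and Clec4e (9.48 and 2.40).

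Pairs of the genes were found in the same cells more often than the product of their shares. After thinning, the 21 pairs were found together in 1.11 times (Pdpn with Cxcl3) to 3.50 times (Pdpn with Mcoln2) that number of cells. The second value rests on 12 cells where the product gives 3.43. For Clec4e and Cxcl3 the number was 94 cells against 63.8, or 1.47 times. These are descriptions over cells of 1 library, for genes chosen with earlier results of these data known.

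Of 8504 genes with at least 200 UMIs in the summed classes, leaving out the 7 rule genes, 273 (3.21%) were at least 1.5-fold higher in marker-high macrophages and 1221 (14.4%) at least 1.5-fold lower. The counting interval excluded 1 for 263 of the 273 and for 999 of the 1221. The median gene stood at -0.15 on the log2 scale. Relative to that median, 476 genes were higher, and the higher genes' share of all calls went from 18.3% to 36.6%. The 7 genes alone stood at 3268 CPM in marker-high and 371 CPM in other macrophages. Of the named genes outside the rule, 24 of 45 higher and 23 of 52 lower genes stayed past 1.5-fold in all 17 other choices of cells (other shares, depths, marker sums and gates). The genes below took no part in the choice, but they were read in the same cells and are given as a description. Counts of called genes in the lists below are to be read against the 3.21% of all genes higher and the 14.4% lower.

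Chemokines of the CXC family split. Cxcl1, a neutrophil chemokine at chr5:90891245-90893121, was found in 43 of 102 marker-high cells, with a median of 0, an upper quartile of 425 CPM and a highest cell of 19788 CPM. It stood at 569 CPM in marker-high and 102 CPM in other macrophages, a ratio of 5.58 (5.24 to 5.94) that was 4.17 without the richest cell. Cxcl2, its abundant neighbour, was found in 101 of 102 members. Its median was 5522 CPM in marker-high and 727 CPM in other macrophages, and the class sums gave a ratio of 2.67 (2.63 to 2.71). Cxcl9, an interferon-induced chemokine, was lower, at 13.2 and 34.8 CPM (ratio 0.38, or 1.08 with Il10 left out of the choice), and 26.4% of its UMIs came from 1 cell. Of the 6 CXC genes measured, 2 were called higher and 1 lower, and the list median was -0.08 on the log2 scale, beside -0.15 for all genes.

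Within the chromosome 5 stretch from Cxcl3 to Areg, 5 genes had enough UMIs to be measured. Cxcl3, Cxcl1, Cxcl2 and Areg were all higher, and Mthfd2l, which lies between Cxcl2 and Areg and encodes a mitochondrial folate enzyme, had a ratio of 1.35. Areg, which encodes the growth factor amphiregulin, was found in 29 members and reached 2106 CPM. It stood at 120 CPM in marker-high and 34.2 CPM in other macrophages, a ratio of 3.51 (3.08 to 4.00). The window of Areg held the cyclic AMP response element letters, present in 1.55% of windows, at 61 bases before its start.

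Inflammatory cytokines formed the list with the largest share of higher genes: 8 of 10 measured were at least 1.5-fold higher and 0 lower, with a median log2 ratio of 0.93. The all-gene share higher was 3.21%. Il1a, encoding interleukin 1 alpha, was found in 90 of 102 members with a median of 189 CPM, against 31.9 CPM in other macrophages, and its class ratio was 3.0 (2.82 to 3.19). Il1b was already abundant in other macrophages, with a median of 825 CPM, and its ratio was 1.5, at the threshold, with a lowest value of 1.31 when Ptgs2 was left out of the choice. Tnf had a median of 450 CPM in members and 247 CPM in other macrophages, with a ratio of 2.06. Csf1, the macrophage growth factor, had a ratio of 3.70, or 2.47 without the cell that held most of its UMIs. Il12b stood at 2.20 (1.49 with Il10 left out of the choice), Il6 at 1.98 (1.13 with Ptgs2 left out), Ebi3 at 1.83 and Il18 at 1.69; Osm (0.97) and Il27 (0.71) were not called. Tnf UMIs were found in 97.1% of members and 87.7% of other macrophages, and Il1b UMIs in 93.1% and 90.6%.

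Genes of arginine and itaconate metabolism were also higher. Of 6 measured, 4 were higher and 0 lower, with a median log2 ratio of 0.87. Acod1, which makes the immunometabolite itaconate, had a median of 94.6 CPM in members and 0 in other macrophages, and its ratio was 3.26 (3.02 to 3.52). Arg2 stood at 2.03, the mitochondrial superoxide dismutase Sod2 at 1.91 and the arginine transporter Slc7a2 at 1.76.

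Of 18 genes of NF-kB subunits, inhibitors and kinases, 4 were higher and 1 lower, with a median log2 ratio of 0.30 beside -0.15 for all genes. Nfkbia, the inhibitor IkB-alpha, had a median of 1169 CPM in members and 567 CPM in other macrophages (class ratio 1.75). Tnfaip3, the deubiquitinase A20, had medians of 378 and 152 CPM (ratio 1.92). Nfkbib stood at 1.61 and the kinase gene Ikbke at 1.84, or 1.06 with Clec4e left out of the choice. The subunit genes Nfkb1 and Rel were not called, at 1.25 and 0.92, and Chuk, a catalytic subunit of the upstream kinase, was lower at 0.66. The NF-kB letters also stood in the windows of Nfkbia, at 28 and 113 bases before its start, and of Tnfaip3, Csf1 and Sphk1. None of the 4 motifs was in the windows of Tnf, Il1b or Acod1, and those of Il1a and Il1rn held only AP-1 letters.

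The genes around Il10 were mixed. Of 20 genes of Il10 induction and response, 2 were higher and 2 lower, with a median log2 ratio of -0.05. Over all genes 3.21% were higher and 14.4% lower, so the lower genes of this list were not in excess of that share. Il1rn, the interleukin 1 receptor antagonist that Il10 is known to raise, had a median of 432 CPM in members and 101 CPM in other macrophages (ratio 2.33). Tnip3 stood at 1.56, or 1.25 with Tnfsf9 left out of the choice. Socs3, another gene that responds to Il10, stood at 1.27 and was not called. Il10ra, a chain of the receptor, was lower at 0.60 (0.73 with Clec4e left out of the choice). So was Maf, a transcription factor known to drive Il10, at 0.59 (0.70 with Mcoln2 left out).

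Around Clec4e, on chromosome 6, the neighbouring lectin genes went in opposite directions. Clec4d and Clec4n, which encode the activating receptors MCL and Dectin-2, were higher by 1.91 and 1.90 times, and with Clec4e left out of the choice Clec4n stood at 1.09. Clec4a1 and Clec4a3 were lower at 0.60 and 0.40, and Clec4b1 (0.83) and Clec4a2 (0.86) were not called. With Cxcl3 left out of the choice, Clec4a1 stood at 0.76. These genes are close relatives, so reads could be split between them in a way the files do not show. The shared signalling genes were mostly level: Fcer1g, the adaptor of Mincle, stood at 0.90 and the kinase gene Syk at 0.97, while Malt1 stood at 1.68. Over the list, 3 of 15 genes were higher and 2 lower, beside 3.21% and 14.4% of all genes.

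The remaining partners of the rule genes were mostly uncalled. For Ptgs2, the terminal synthase gene Ptges, which makes prostaglandin E2, was higher at 2.05 (1.44 with Clec4e left out of the choice), while the thromboxane synthase gene Tbxas1 (0.61, or 0.75 with Il10 left out) and the prostaglandin-degrading Hpgd (0.62) were lower. Ptgs1, the constitutive cyclooxygenase, stood at 0.84. The list had 1 of 12 genes higher and 2 lower, beside 3.21% and 14.4% of all genes. For Tnfsf9, the gene of its receptor Tnfrsf9 stood at 2.05 (1.36 with Tnfsf9 left out of the choice) and Cd40 at 1.72. For Mcoln2, its relative Mcoln1 was level at 1.05, Mcoln3 had 0 and 6 UMIs in the classes, and Tfeb, a regulator of lysosomal genes, was lower at 0.63. For Pdpn, Ezr, the gene of ezrin, which binds its tail, stood at 1.55 (1.26 with Cxcl3 left out of the choice) and Vcam1 at 1.75 (1.11 without the cells richest in endocrine and acinar transcripts), the others of 18 genes not reaching 1.5-fold.

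**Figure D3:**
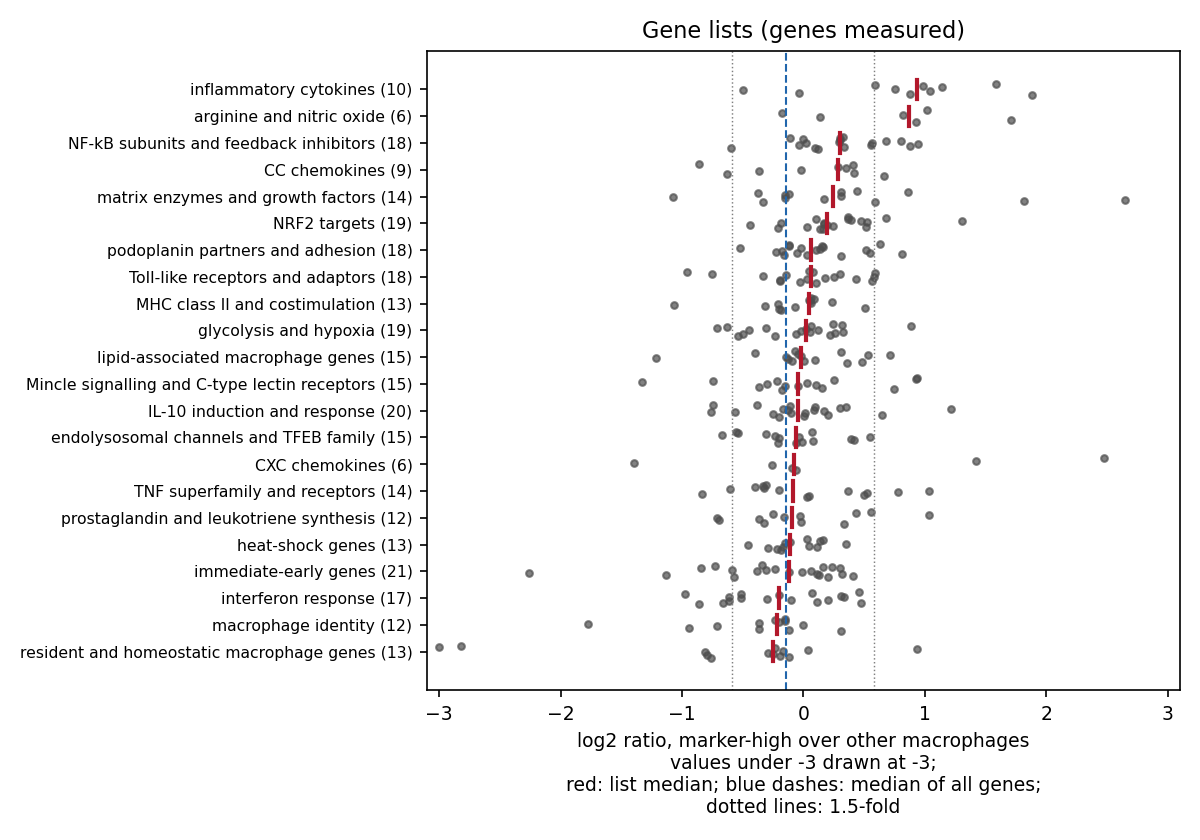
Log2 ratio of each measured gene of 22 gene lists, marker-high over other macrophages; points are genes, red marks list medians, the blue dashed line the median of all genes (-0.15) and dotted lines a 1.5-fold difference. Inflammatory cytokines (median 0.93) and arginine and nitric oxide genes (0.87) stand apart at the top, and resident macrophage genes (-0.25) are at the bottom.

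Of 14 genes of matrix enzymes and growth factors measured, 4 were higher (Hbegf, Areg, Mmp13 and Thbs1) and 1 lower, with a median log2 ratio of 0.24. Hbegf, a ligand of the EGF receptor, had a ratio of 6.27 (4.77 to 8.18), but it was found in 12 members, and the ratio was 3.85 without 1 cell. Gem, a small GTPase gene, was found in 28 members, with a ratio of 4.41 (3.70 to 5.23), and Sphk1, which makes sphingosine 1-phosphate, in 33, with a ratio of 3.63. Slc7a11, the cystine transporter gene and an NRF2 target, had medians of 578 and 79.3 CPM and a ratio of 2.47 (2.35 to 2.60). Among 19 NRF2 targets it and Nqo1 (1.60, or 1.17 with Cxcl3 left out of the choice) were called higher and 0 lower, and Hmox1, the heme oxygenase gene, stood at 1.29.

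Some high ratios came from few cells. Yae1d1 had a ratio of 5.55 but 2.26 without 1 cell, and it was below 1 in 3 of the other choices of cells. Gm16685, a long non-coding RNA gene that overlaps Il7, went from 4.20 to 1.84 without 1 cell. Hamp, the gene of hepcidin, had 50 UMIs in 4 members, and Ccdc162, which overlaps other transcripts, had a ratio of 3.72 with UMIs in 9 members. Thbs1 was called at 1.5 but stood at 0.65 without its richest cell.

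The genes that were lower included several of resident and homeostatic macrophages. Mertk, a receptor for dying cells, stood at 4.97 CPM in marker-high and 17.0 CPM in other macrophages (ratio 0.29), the fractalkine receptor gene Cx3cr1 at 59.6 and 115 CPM (0.52), and the Fc receptor gene Fcgr1 at 0.61 (0.91 with Cxcl3 left out of the choice). These 3 were the lower genes of the 12 identity genes. Of 13 resident genes, 5 were lower (Timd4, Folr2, Tgfbr1, Maf and Tmem119, the last at 1.08 with Cxcl3 left out) and 1 higher (Mgl2, 1.91). Both counts stand beside 14.4% of all genes lower and 3.21% higher. Tgfbr1 stood at 393 and 688 CPM (0.57). Timd4 and Folr2 had 1 and 3 UMIs in marker-high cells, and 35.2% and 42.6% of all their UMIs were in 1 cell. Arhgap25 had a low ratio that was spread over many cells, with 14 UMIs in marker-high and 1653 in other macrophages (0.12, interval 0.067 to 0.21) and 0.780% of its UMIs in its richest cell. The lipid exporter gene Abcg1 was lower at 0.43.

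Other activation lists had counts to be read against the 3.21% of all genes called higher and the 14.4% called lower. At those shares a count of 0 higher genes in lists of this size is near the background. Of 17 interferon response genes 0 were higher and 5 lower (among them Ifit3 0.51, Cmpk2 0.55, Usp18 0.63 and Irf7 0.66). With Cxcl3 left out of the choice, Ifit3 was 0.96, Cmpk2 0.88 and Usp18 0.89, and the list's median ratio went from 0.87 to 1.10. Of 21 immediate-early genes 0 were higher and 5 lower, among them Klf2 (0.21), Nr4a2 (0.46), Jun (0.56) and Egr1 (0.67, or 0.88 with Clec4e left out). None of 13 heat-shock genes was called in either direction. Antigen presentation was level, with H2-Aa at 1.04 and Cd74 at 1.04, although Cd80, a costimulatory ligand gene, was lower at 0.48 (0.79 with Cxcl3 left out of the choice). The proliferation gene Mki67 was higher at 2.20 while Top2a (0.39) and Stmn1 (0.55) were lower.

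Beside these differences, the classes were close in depth and quality. The median cell had 22572.5 UMIs in marker-high and 20822.5 in other macrophages, mitochondrial transcripts were 1.28% and 1.38%, and C1q genes 6003 and 6927 CPM. The median doublet score of Scrublet was 0.0586 in both, and of the 40 highest-scoring cells 0 were marker-high and 37 other macrophages. Among genes of other cell types, all 13 acinar genes were at 0 in marker-high cells. So were 7 of 9 NK and 7 of 10 neutrophil genes, S100a8 among them. In other macrophages the acinar list had only 52 UMIs and S100a8 had 4. The classes had 2415220 and 34945006 summed UMIs, so a 0 in marker-high cells says little for genes this rare. The NK list summed to 4.14 and 6.55 CPM. Other lists were present at low levels in both classes. The neutrophil list summed to 33.5 CPM in marker-high and 46.8 CPM in other macrophages, mostly from Csf3r (30.6 and 44.5 CPM). S100a9 (0.83 and 0.46 CPM) and Mmp8 (2.07 and 0.49 CPM) went the other way, with 2 and 5 UMIs in marker-high cells. Monocyte genes summed to 45.1 and 38.6 CPM, and Vcan had 29 UMIs in 6.86% of members and 47 UMIs in 1.81% of other macrophages. Dendritic cell genes summed to 71.2 and 75.3 CPM, B cell genes to 91.5 and 109 CPM, and endothelial genes to 11.6 and 16.9 CPM. Single genes of these lists went both ways. Flt3 stood at 0 and 1.52 CPM but Zbtb46 at 10.4 and 7.30 CPM, and Cldn5 at 0 and 0.06 CPM but Flt1 at 3.31 and 1.86 CPM. Of 5 dendritic cell genes measured, 0 were called higher and 1 lower, with a median ratio of 1.25. The part of these transcripts in the results was not tested. T cell genes summed to 603 and 599 CPM, nearly all from Il7r, and 6 of 10 were at 0. Endocrine transcripts summed to 3142 and 2941 CPM, with a median of 984 and 1020 CPM per cell. Without the 10% of gated cells richest in endocrine and acinar transcripts, Pdpn went from 3.41 to 1.14 and Vcam1 from 1.75 to 1.11. Slc7a2 (1.47), Il1b (1.36), Fcgr1 (0.667) and Usp18 (0.69) were among the named genes no longer past 1.5-fold there, and the hormone genes Ppy (0.25 to 1.38), Pyy (0.22 to 0.86) and Sst (1.52 to 3.75) moved.

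Across bands of the score, genes outside the choice varied on both sides of the 6% line. Il1rn was between 641 and 768 CPM in all bands of the top 10% and was 217 CPM in the bottom 60%. Acod1 went from 524 CPM in the top 2% to 171 CPM in the band from 6 to 8% and 64.1 CPM in the bottom 60%. Cxcl1 was uneven, with 1020 CPM in the band from 2 to 4%, 243 CPM in the next and 413 CPM just outside the line. The cell richest in Cxcl1, with 354 UMIs, was in the band from 2 to 4%. Cx3cr1 was between 41.1 and 84.8 CPM in the top 10% and was 133 CPM in the bottom 60%.

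**Figure D4:**
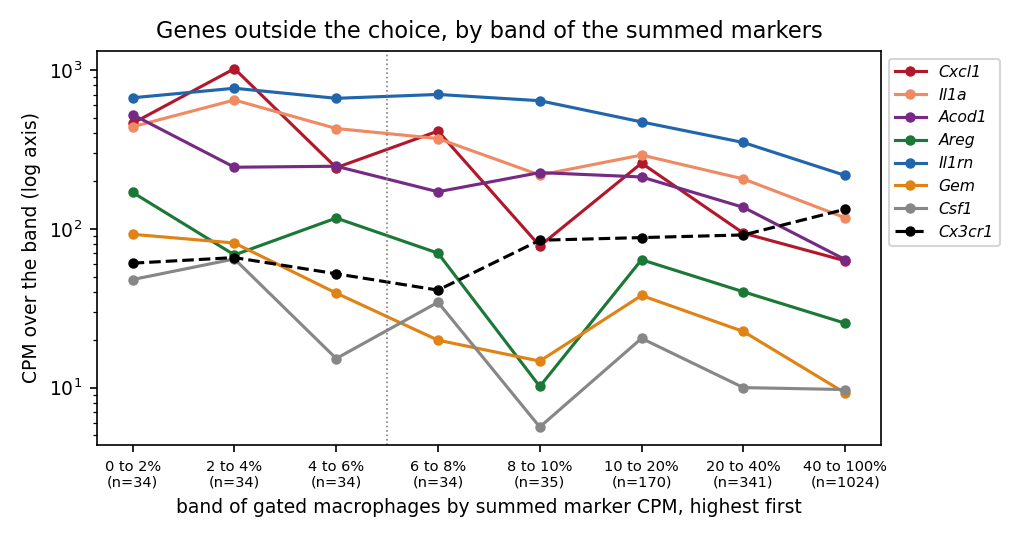
CPM on a log axis of 8 genes outside the rule over bands of the gated macrophages by summed marker CPM, highest at the left; each point is the sum over the cells of the band (n under the axis) and the dotted line marks the 6% limit. Il1rn, Acod1 and Gem are highest in the top bands and lower to the right, Cx3cr1 (dashed) is highest in the bottom 60%.

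The members differed by their leading marker. The 42 cells led by Clec4e had 3787 CPM of Cxcl2, the 34 led by Cxcl3 had 10310 CPM and the other 26 had 14563 CPM. Il1b followed that order, at 1212, 3309 and 4465 CPM, and so did Tnf, at 562, 986 and 1426 CPM. Acod1 had the opposite order, at 477, 312 and 168 CPM. Cxcl1 stood at 242 CPM in the Clec4e-led cells, 897 CPM in the Cxcl3-led cells and 692 CPM in the other 26. A single Cxcl3-led cell held 354 of the members' 1375 Cxcl1 UMIs, and the order without it was not tested. Areg was highest in the 26 others, at 301 CPM against 17.7 CPM in the Clec4e-led cells. Median depths were 23279, 21916.5 and 23294 UMIs.

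Surface CD9 and CD206 were close in the marker-high and other macrophages. The CD9 tag (TAGCAGTCACTCCTA) and the CD206 tag (TCAACTCGGTGTTGC) are shown because they are the oligonucleotides whose UMIs stand for the 2 proteins. CD9 ranged from 19 to 16283 UMIs per marker-high cell with a median of 775.5, and from 2 to 37469 with a median of 645 in other macrophages, so the classes overlapped over nearly the whole range. The means were 1912 ± 2733 (SD over 102 cells) and 1810 ± 2913 (SD over 1604 cells), a ratio of 1.06 (1.05 to 1.06), and per RNA UMI the ratio was 0.97. CD206 medians were 10 and 9 UMIs, and the ratio of means was 0.98 (0.94 to 1.02). Ranked within deciles of RNA depth, 31 of 102 members (30.4%, exact Clopper-Pearson interval 21.7 to 40.3%) lay in the upper tercile of CD9, and 31 in that of CD206. The RNA gave similar values, with Cd9 at 1.12 and Mrc1, which encodes CD206, at 1.08. T and NK cells had a median of 65 CD9 and 1 CD206 UMIs.

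**Figure D5:**
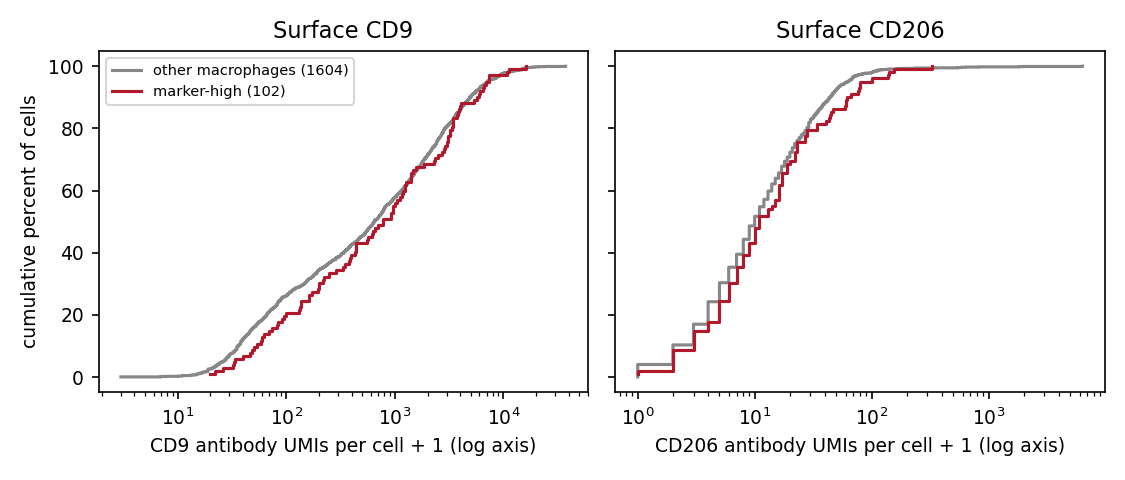
Cumulative percent of cells against antibody UMIs per cell plus 1 on a log axis, for CD9 (left) and CD206 (right), in 102 marker-high (red) and 1604 other macrophages (grey). The curves run close to each other, with medians of 775.5 and 645 UMIs for CD9 and 10 and 9 for CD206.

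Within the members CD9 went with the leading marker: the median was 1258 UMIs in the Clec4e-led cells, 356.5 in the Cxcl3-led and 674.5 in the others. The CD9 ratio moved with the markers summed: it was 0.86 when Clec4e was left out of the choice and 1.45 when Cxcl3 was left out.

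The marker-high cells were compared with 3 other selections of 102 gated macrophages, each the top 6% by another set of genes. They shared 12 cells with the selection by Il12b, Cd207 and Mmp13, and 9 each with those by Gdf15, Osm and Gclc and by Pltp, Anxa1 and Clec4n; the product of the shares gives 6.10. The selections were alike in some genes and differed in others. Among the rule genes, Pdpn had ratios of 3.41 in marker-high cells and 2.33, 0.616 and 3.197 in the Il12b, Gdf15 and Pltp selections. Those of Tnfsf9 were 4.45, 4.05, 1.24 and 0.886 in that order. Cxcl3 (15.9, 1.56, 1.47 and 1.94) and Clec4e (9.48, 1.39, 1.05 and 1.54) differed more. The rule genes chose the marker-high cells and not the other selections, and Cxcl3 and Clec4e gave most of the score. Their wider gaps therefore follow from the choice of cells. Pdpn was thus near its marker-high ratio in the Pltp selection, and Tnfsf9 in the Il12b selection. In the Il12b selection Tnf stood at 2.42, Il1b at 1.34 and Nfkbia at 1.54, against 2.06, 1.5 and 1.75 in marker-high cells, and 4 of 18 NF-kB genes were higher in both. Acod1 was also higher in the Pltp selection, at 2.12. Cxcl1 had ratios of 5.58 in marker-high cells, 2.77 in the Il12b selection, 2.90 in the Gdf15 selection and 0.16 in the Pltp selection. For Areg the ratios were 3.51, 0.58, 0.86 and 0.86. The inflammatory cytokines had median log2 ratios of 0.93, 0.83, -0.15 and -0.57; Il12b and Osm belong to that list and to the choice of 2 selections, where they were left out. Hmox1 was 2.08 times higher in the Gdf15 selection and 1.29 times in marker-high cells. Median CD9 was 775.5 UMIs in marker-high cells, 294.5, 349.5 and 2511.5 in the 3 selections.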

How the data were processed

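The RNA and antibody counts were deposited by the authors as 1 matrix of UMI counts (32285 genes and 2 antibody tags in 2237 barcodes), made with Cell Ranger 8.0.1 on mm10, per the file headers and the submitters' processing notes. The antibodies were against CD9 and CD206, per the labels. Members and gene lists were chosen with earlier results of these data known.

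UMIs were summed over the cells of each class and scaled to CPM. Ratios of sums have exact conditional binomial 95% intervals. A gene was called at a ratio of at least 1.5 either way, with at least 200 UMIs in the 2 sums; a sum of 0 was set to 3 counts. No test was made, since all cells come from 1 pooled sample. The step was tested on simulated counts. Depth was equalized by thinning to 5000 UMIs. T and NK cells had at least 5000 UMIs, at least 2 UMIs of Cd3d, Cd3e, Cd3g, Ncr1 and Klrb1c, and under 1000 CPM of C1q. Named genes were the rule genes, the 12 higher and 12 lower genes by the interval bound nearest to 1 (without mitochondrial, ribosomal protein, endocrine and acinar genes), up to 4 called genes per list and direction by the same bound, and a set of partner genes named whatever their ratio. Il18, Ebi3, Osm, Il27, Irf7, Mthfd2l, Clec4b1 and Clec4a2 were added after their values were seen. RefSeq gave positions for 118 of 119 named genes. Scrublet (scanpy 1.11.5) called 14 of the 2215 cells passing the gene and mitochondrial filters; no cell was removed for it in the main choice. Python 3.11.15 with scipy 1.17.1 was used. Alternatives were other shares of cells, depth, marker weights, left-out markers, gates, doublets, endocrine RNA, filters and centring. The values of some genes that met the naming rule are not reported here.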

Additional observations from a re-analysis of the deposited data

How the results depend on the processing

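No paired analysis was possible because each library is 1 pooled sample. Across 17 other choices of cells and the other settings, 3127 alternative values of single genes and lists were computed. Of these, 2522 stayed within their spread or limit. Crossing of 1 was counted only where the main ratio was at least 1.5-fold either way, and 24 such values crossed. Genes and lists with main ratios nearer to 1 also crossed in some settings and are not in that count. The counts of 273 higher and 1221 lower genes became 170 and 657 with at least 500 UMIs, and 81 and 368 at a ratio of 2, where 4 cytokines were higher; centring gave 476 higher. Left out of the choice, Clec4e was 2.83 after thinning and 2.10 without its richest cell, and Cxcl3 was 1.84 after thinning.

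The CD9 ratio (1.06) was 0.887 for the top 3%, 1.15 for the top 10%, 0.977 within depth deciles, 1.07 with at least 10000 UMIs, 1.42 with equal marker weights, 1.06 with C1q of at least 4000 CPM, 1.12 without the highest Scrublet scores, 0.972 per RNA UMI, 1.20 by medians and 1.07 without its richest cell. It was 1.04, 1.05, 0.862, 1.07, 1.45, 1.03 and 1.10 with Pdpn, Il10, Clec4e, Mcoln2, Cxcl3, Ptgs2 and Tnfsf9 left out. The CD206 ratio (0.98) was 1.15 for the top 3%, 0.793 within depth deciles, 1.03 after thinning, 1.06 with equal weights, 0.921 without cells rich in endocrine RNA, 0.905 per RNA UMI, 1.11 by medians and 1.17 without its richest cell. It was 1.05, 0.755, 0.924, 1.16 and 1.03 with Il10, Clec4e, Mcoln2, Cxcl3 and Ptgs2 left out. So no direction of either antibody held over all settings.

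Among the genes called in the main choice, Yae1d1 crossed 1 (top 3% 0.32, thinned 0.92, Clec4e out 0.54). So did Mmp10 (top 10% 4.16, thinned 7.25, equal weights 7.07, Cxcl3 out 7.26). Ccl12 also crossed (top 10% 1.21, and 1.35, 2.43, 1.21 and 1.26 with Il10, Clec4e, Ptgs2 and Tnfsf9 out). Further crossings were those of Sst (deciles 0.75, equal weights 0.60, Clec4e out 0.99, Ptgs2 out 0.94) and Thbs1 (deciles 0.76, equal weights 0.69, Clec4e out 0.72, without 1 cell 0.65). With 1 crossing each were Cxcl9 (Il10 out 1.08), Fabp5 (Clec4e out 0.77), Tmem119 (Cxcl3 out 1.08) and Ppy (endocrine RNA removed 1.38). The cause was not tested.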

Other observations

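Outside the macrophage gate, 11 of 297 cells (3.70%, exact Clopper-Pearson interval 1.86 to 6.53%) with at least 5000 UMIs and under 2000 CPM of C1q reached the summed CPM of the lowest marker-high cell. Clec4e led in 8 of them and Il10 in 3. Together they had 2745 CPM of Clec4e and 788 CPM of Il10 but 177 CPM of Cxcl3 and 55.5 CPM of Ptgs2, against 1057 and 298 CPM in the marker-high macrophages. In 3 of the 11, S100a8 and S100a9, genes of neutrophils and monocytes, reached at least 1000 CPM. Among 212 cells with under 5000 UMIs, 3 reached that sum.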
